A study of Mus musculus with 6 samples.

Results

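RNA of leukemia cells and of cells labelled macrophages was compared in MA9 mice that received no iron, with 1 library of each. The comparison covered the protein-coding genes that reached an FPKM of 1 in either library, where FPKM is mapped fragments scaled for exon length and for library size. This rule kept 11376 of 21995 protein-coding genes, out of 54532 genes listed in all. MA9 mice were young adult C57BL/6 animals, transplanted with GFP+ leukemia cells that had been raised by infecting c-kit+ BM cells with a retrovirus for the MLL-AF9 fusion and GFP. Both libraries of the pair came from MA9 mice given PBS intraperitoneally, the vehicle control for iron dextran. Another 4 libraries served for reference, namely MA9/FE leukemia cells, MA9/FE macrophages, WT macrophages and WT/FE macrophages, where FE marks iron dextran and WT mice carried no leukemia. The labels take the leukemia cells from BM and the macrophages from spleen, whereas the paper describes the macrophages as BM cells sorted as GFP- Gr-1lo F4/80+ CD115int with low to intermediate side scatter. With the organs as labelled, organ and cell type cannot be told apart. Neither source says how the leukemia libraries were sorted or how many mice were pooled, and the GFP and fusion transcripts are not among the genes listed here. With 1 library per condition no difference below has a replicate check, and no test was made.

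MLL-AF9 is a fusion of the histone methyltransferase MLL with AF9, a partner that recruits the machinery of transcript elongation. The fusion is known to keep the HOXA cluster and its cofactor MEIS1 active in granulocyte-macrophage progenitors, which then keep dividing in place of maturing. Macrophages of the spleen red pulp engulf aged red cells, break down their heme and export the iron, while antigen-presenting myeloid cells load peptides on MHC class II molecules for T cells.

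The label of the macrophage library was checked first, because markers of several other cell types were abundant in it. Adgre1, which encodes F4/80, had an FPKM of 28.6 in leukemia cells and 32.2 in the macrophage-labelled library. Csf1r, which encodes CD115, had 66.6 and 63.9 FPKM, and Cd68, a lysosomal glycoprotein of phagocytes, had 100.1 and 71.9 FPKM. None of these 3 defining markers reached a 2-fold difference, although 2 of the proteins were used in the gate. The other defining markers were higher in the macrophage-labelled library, with Fcgr1, the high-affinity IgG receptor, at 0.83 against 2.89 FPKM and Mertk, a receptor for dying cells, at 0.241 against 8.68 FPKM. Among the abundant transcripts that set the macrophage-labelled library apart were those of B cells, plasma cells and antigen presentation. Cd79a, a signalling chain of the B cell receptor, had an FPKM of 415 there and 0.832 in leukemia cells, and Cd74, the invariant chain of MHC class II, had 4730.2 and 94.7 FPKM. In WT macrophages Cd79a stood at 745 and Cd74 at 7928 FPKM, and both were also high with iron (the heat map of marker genes). The contents of this library thus go against its label in part, and it is called the macrophage-labelled library throughout. In bulk RNA, fewer cells of a type and less RNA per cell cannot be told apart.

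**Figure D1:**
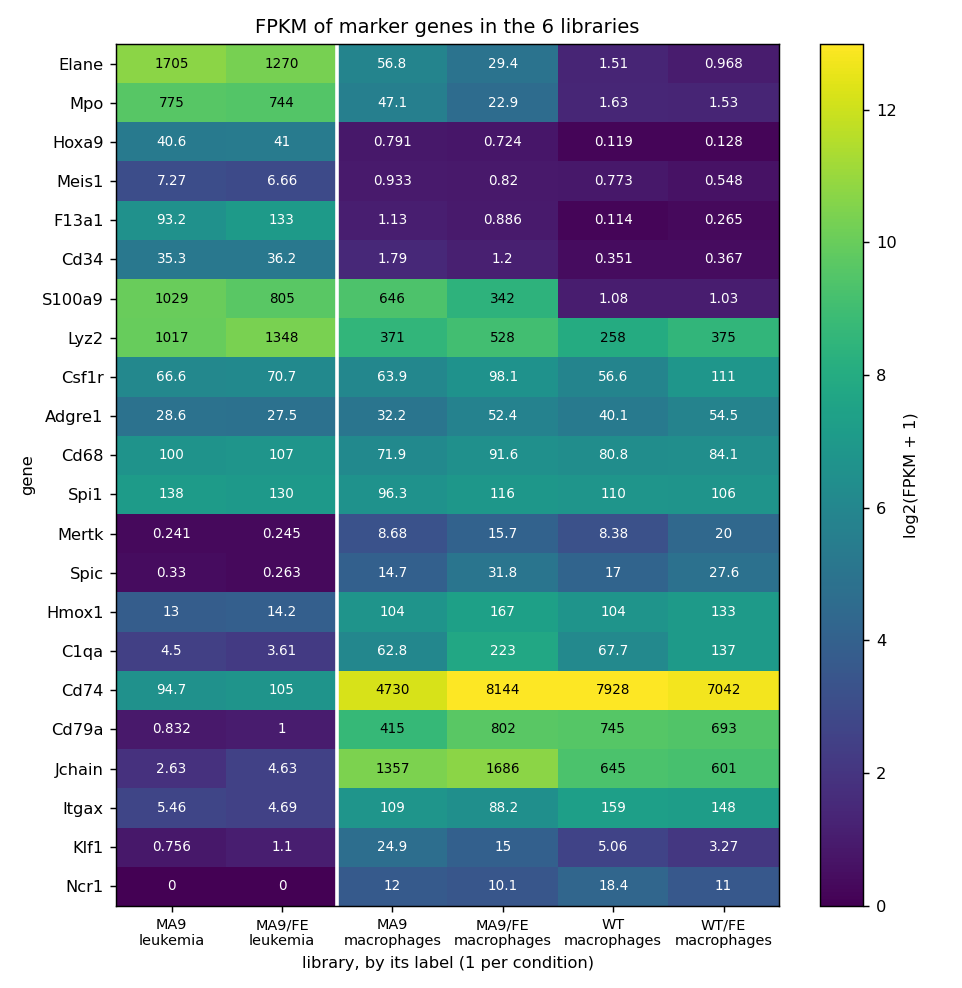
Heat map of FPKM for 22 marker genes in the 6 libraries, 1 per condition. Rows are genes, columns are libraries, color is log2(FPKM + 1) and the number in each cell is the FPKM. The white line separates the 2 leukemia libraries from the 4 libraries labelled macrophages. Csf1r, Adgre1, Cd68 and Spi1 differ by less than 2-fold over all 6 libraries, whereas Elane and Hoxa9 are high on the left and Cd74, Cd79a and Jchain on the right.

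The 3 defining markers of the leukemia label were read next. All of them met the FPKM rule through leukemia cells alone, so their direction is no independent check of the label. Hoxa9, the homeobox gene most closely tied to MLL leukemia, had an FPKM of 40.6 in leukemia cells and 0.791 in the macrophage-labelled library. Hoxa10 had 21.2 and 0.234 FPKM, and Meis1 had 7.27 and 0.933 FPKM. All 3 were at least 4-fold higher in leukemia cells.

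Differences are given as log2 of FPKM + 1 in leukemia cells minus that in the macrophage-labelled library, after a TMM factor that aligns the 2 libraries, so a negative value marks a gene higher in the macrophage-labelled library. A gene was counted as different at a fold of at least 2 on that scale, on which genes of low FPKM appear to change less than they do. In leukemia cells 1033 genes were higher, or 9.08% of the 11376, and in the macrophage-labelled library 1552 were higher, or 13.6%. At a fold of at least 4 these counts were 290 (2.55%) and 611 (5.37%), and at a fold of at least 16 they were 23 (0.202%) and 119 (1.05%). The median difference over all 11376 genes was 0.05. Both libraries shared much of their expression, with 9699 genes at or above an FPKM of 1 in both and 77 genes common to the top 100 of each. Another 546 genes met the rule through leukemia cells alone and 1131 through the macrophage-labelled library alone, and such genes lean toward the library that let them in. The genes counted as different stood under an FPKM of 0.1 in the other library for 88 of those higher in leukemia cells and for 334 of those higher in the macrophage-labelled library. Recovered depth was 18157061 reads for leukemia cells and 17001669 for the macrophage-labelled library.

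**Figure D2:**
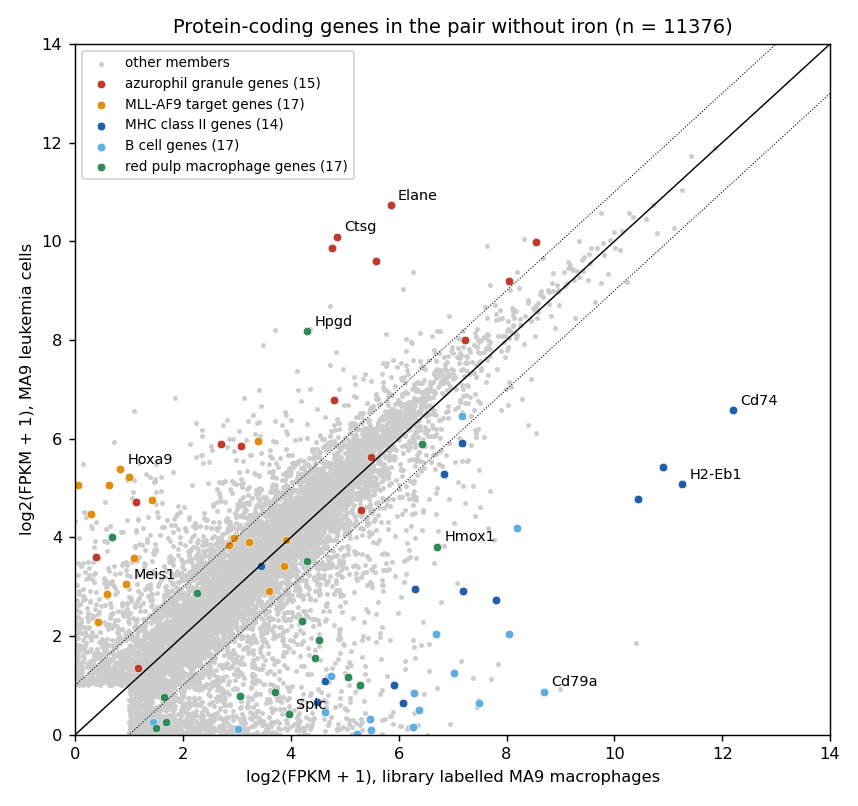
Each point is 1 of 11376 protein-coding genes, with log2(FPKM + 1) in the macrophage-labelled library on the horizontal axis and in leukemia cells on the vertical axis. The solid line marks equal levels and the dotted lines a fold of 2 before TMM scaling, colors mark members of 5 gene lists, and the number of members measured is in parentheses. Most granule genes and MLL-AF9 targets lie above the lines, and most MHC class II and B cell genes lie far below them.

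Identity programs were described with 41 gene lists holding 623 distinct genes, of which 565 were measured, that is, met the FPKM rule. A gene may stand on more than 1 list. Counts within a list are to be read beside the shares of all genes. These were 9.08% higher in leukemia cells and 13.6% higher in the macrophage-labelled library. The median difference was above 0 for 15 lists and below 0 for 26. Of the 2585 genes counted as different in either direction (22.7%), 318 were on a list and 2267 were on none. The lists with the highest medians were azurophil granule genes at 2.75 and MLL-AF9 target genes at 2.26. The lowest medians belonged to B cell genes at -5.23 and MHC class II genes at -4.61.

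**Figure D3:**
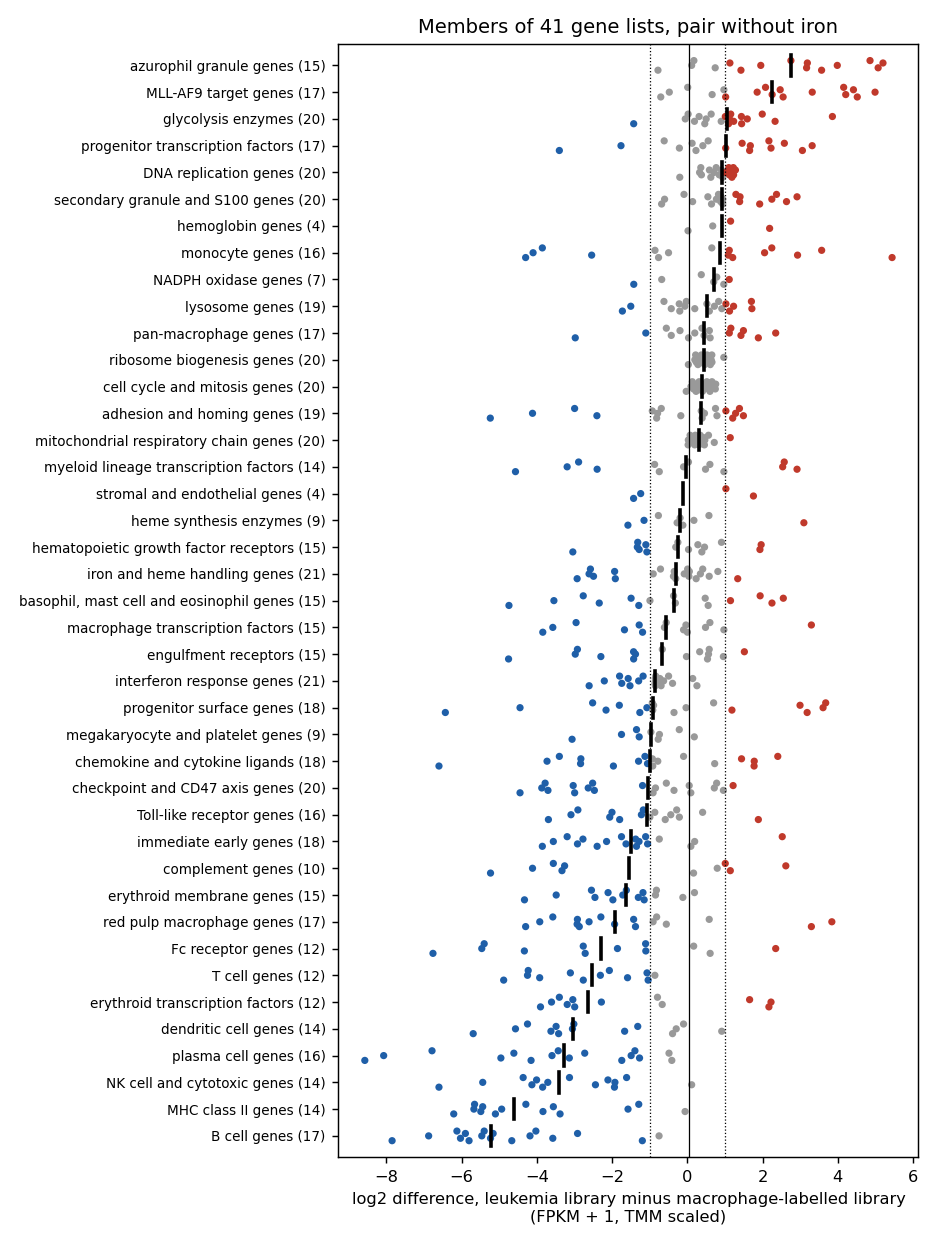
Each row is 1 of 41 gene lists, ordered by median, with the number of measured members in parentheses. Points are members, placed by their log2 difference between leukemia cells and the macrophage-labelled library (FPKM + 1, TMM scaled), the thick bar is the list median, the dotted lines mark a fold of 2 and the solid line the median of all 11376 genes. Red points are at least 2-fold higher in leukemia cells and blue points at least 2-fold higher in the macrophage-labelled library.

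Targets of the fusion formed one of the clearest groups on the leukemia side. Of 17 measured MLL-AF9 target genes, 12 were at least 2-fold higher in leukemia cells and 0 in the macrophage-labelled library, beside 9.08% and 13.6% of all genes. Hoxa9 was higher by 4.52 on the log2 scale, Hoxa6 by 4.42, Hoxa5 by 4.21 and Hoxa10 by 4.16. The other cluster members that met the rule, Hoxa7 and Hoxa3, were higher by 3.32 and 1.86. Neighbouring HOXA transcripts overlap, and whether reads were counted by strand is not given in the sources used here. Hoxa5 was the member of the cluster that WT macrophages held at the highest level, 3.28 FPKM. Eya1, a transcriptional coactivator, had 6.23 FPKM in leukemia cells and 0.497 FPKM in the macrophage-labelled library. Among the cofactors of HOX proteins, Meis1 was higher by 2.08 and Pbx3 by 2.47. Cdk6, the cyclin-dependent kinase of early G1, had 61.3 FPKM in leukemia cells and 9.48 FPKM in the other library. Not every target separated the libraries. Mef2c, a transcription factor also used by B cells, had 14.5 and 14.1 FPKM, and the differences of Jmjd1c and Dnmt3a were -0.48 and -0.71.

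Transcription factors of progenitors were more often on the leukemia side. Of 17 measured, 9 were higher in leukemia cells and 2 in the macrophage-labelled library, beside 9.08% and 13.6% of all genes. The median was 1.02. Gfi1, a repressor needed for granulocyte formation, had an FPKM of 57.1 against 4.72. Myb, which keeps progenitors dividing, had 70.6 against 14 FPKM, and Erg, an ETS factor of stem cells, had 24.9 against 2.05 FPKM. The exceptions were Tal1 and Mycn. Tal1, a factor of stem cells and the erythroid line, had 0.189 FPKM in leukemia cells and 11.4 in the macrophage-labelled library. Myc itself differed by 0.23, and Runx1 was just past the fold at 1.02.

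Factors of myeloid commitment were split. Of 14 measured, 3 were higher in leukemia cells and 4 in the macrophage-labelled library, with a median of -0.03. Those on the leukemia side were all C/EBP factors. Cebpa, which directs cells into the granulocyte-macrophage line, had an FPKM of 87.9 against 14.1. Cebpe, the factor of late granule genes, had 78.5 against 9.34 FPKM, and Cebpd had 23.6 against 3.06 FPKM. The general myeloid factors did not separate the libraries, with Spi1, which encodes PU.1, at 138 against 96.3 FPKM and Irf8 at 89.4 against 94.1 FPKM. The members on the macrophage side were Batf3, Egr1, Id2 and Egr2, of which Egr1 is also counted among the immediate early genes below. Batf3, which cross-presenting dendritic cells require, had 32.1 FPKM there and 0.414 FPKM in leukemia cells.

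Genes of azurophil granules, whose proteases and other contents are made at the promyelocyte stage, summed to the highest FPKM of the 41 lists in leukemia cells, 6691, against 1065 in the macrophage-labelled library. Elane, neutrophil elastase, had an FPKM of 1705 in leukemia cells and 56.8 in the macrophage-labelled library. Ctsg, cathepsin G, had 1091 and 28.1 FPKM, Prtn3, proteinase 3, had 927 and 26.1 FPKM, and Mpo, myeloperoxidase, had 775 and 47.1 FPKM. Their log2 differences were 4.86, 5.20, 5.07 and 3.99. Of 15 measured members, 11 were at least 2-fold higher in leukemia cells and 0 in the macrophage-labelled library. Smaller members of the program were also on the leukemia side, with Prss57, a serine protease, at 25.2 against 1.18 FPKM and Ms4a3 at 58.8 against 5.53 FPKM. Lyz2, lysozyme, which macrophages also make, had 1017 against 371 FPKM. Ctsc, the peptidase that activates these proteases, was at 22.4 against 38.5 FPKM, and Nkg7 at 48.3 against 43.7 FPKM. The 150 bases before the start of Elane, Prtn3 and Ctsg are given here, because these genes carried the strongest differences of the program. Sequences are from RefSeq (GRCm38.p6), and capitals mark matches on either strand to GAGGAA, a core bound by PU.1, to TGTGGT, a core bound by RUNX factors, or to TTNNGCAA, a form of the C/EBP motif. Printed 5′ to 3′, the stretch of Elane lies at chr10:79886162-79886311, Prtn3 at chr10:79879517-79879666 and Ctsg at chr14:56102575-56102724, the first pair on the plus strand and Ctsg on the minus strand. The RefSeq start is the outermost GENCODE start for Ctsg, but lies 65 bases from it for Elane and 5191 bases from it for Prtn3.
Elane: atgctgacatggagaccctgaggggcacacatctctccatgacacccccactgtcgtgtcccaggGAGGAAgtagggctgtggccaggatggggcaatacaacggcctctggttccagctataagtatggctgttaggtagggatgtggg
Prtn3: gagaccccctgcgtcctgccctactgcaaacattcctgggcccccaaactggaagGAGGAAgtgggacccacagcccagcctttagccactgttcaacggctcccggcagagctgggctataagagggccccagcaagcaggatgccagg
Ctsg: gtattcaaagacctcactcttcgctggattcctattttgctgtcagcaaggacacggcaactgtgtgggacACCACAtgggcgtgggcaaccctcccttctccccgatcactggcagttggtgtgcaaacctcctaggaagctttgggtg
In the 250 bases before the start, GAGGAA was present in 7 of 13 azurophil granule genes with a RefSeq promoter and in 22.3% of 16509 protein-coding promoters. TGTGGT was present in 4 of these 13 genes against 12.2%, and TTNNGCAA in 1 against 8.98%. Other lists held these strings too. GAGGAA was in 6 of 17 MLL-AF9 target genes, 4 of 10 erythroid membrane genes, 4 of 15 B cell genes and 1 of 9 MHC class II genes. TGTGGT was in 2 of 17, 2 of 10, 5 of 15 and 1 of 9 of these lists in the same order. A match is a string of letters and not a measured binding site.

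Genes of the later granules differed less. Of 20 measured secondary granule and S100 genes, 8 were higher in leukemia cells and 0 in the macrophage-labelled library, with a median of 0.92. Fcnb, ficolin B, had an FPKM of 49.6 against 8.61, and Padi4, an enzyme of chromatin citrullination, had 19.5 against 2.25 FPKM. The most abundant members did not reach a fold of 2. S100a9, a calcium-binding protein of neutrophils, had 1029 against 646 FPKM, and Ngp, a neutrophil granule protein, had 418 against 372 FPKM. In WT macrophages S100a9 stood at 1.08 and Ngp at 0.629 FPKM. The summed FPKM of the list was 3270.1 in leukemia cells, 1977 in the macrophage-labelled library of MA9 mice and 25.7 in that of WT mice. How far granulocytes or leukemia cells in the MA9 macrophage-labelled library account for its granule transcripts was not tested. The oxidase that granulocytes and macrophages share gave a median of 0.70 over 7 genes. Of these, 1 was past the fold on each side, close to the shares of all genes. They were Ncf1 at 1.12 and Hvcn1, a proton channel, at -1.42.

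Monocyte genes stood on both sides. Of 16 measured, 8 were higher in leukemia cells and 4 in the macrophage-labelled library, with a median of 0.87. F13a1, coagulation factor XIII A, had the largest difference on the leukemia side among well-covered genes (100 reads or more in the library where they are higher), at 5.44, with an FPKM of 93.2 against 1.13. Fn1, fibronectin, Ly6c2 and Ccr2, the receptor that draws monocytes out of BM, were higher in leukemia cells by 3.57, 2.93 and 2.05. On the other side, Nr4a1, the factor that patrolling monocytes require, had 217 FPKM in the macrophage-labelled library and 14.4 FPKM in leukemia cells. Ace, angiotensin-converting enzyme, and Treml4 were there at 33 and 38.2 FPKM, against 1.01 and 1.02 FPKM in leukemia cells. Cx3cr1, the fractalkine receptor, differed by only 0.65, and Spn was on the leukemia side at 122 against 54.8 FPKM. Nr4a1 is also on the list of immediate early genes, which respond to cell isolation as well.

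Surface genes used to mark progenitors and leukemic cells did not move as 1 group. Of 18 measured, 5 were higher in leukemia cells and 7 in the macrophage-labelled library, with a median of -0.91. Cd34 had an FPKM of 35.3 against 1.79, Cd33, a sialic acid receptor, 36.1 against 2.0, and Clec12a, a C-type lectin, 100.5 against 9.96. Cd93 was at 56 against 6.03 FPKM. Kit, the stem cell factor receptor by which the founder cells had been enriched, was lower in leukemia cells, at 11.3 against 24.4 FPKM. Ly6a, which encodes Sca-1, had 1.69 FPKM in leukemia cells and 228 FPKM in the macrophage-labelled library. Havcr2, which encodes TIM-3, was at 0.587 against 33.2 FPKM.

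Receptors for growth factors followed the same split. The receptors for G-CSF and IL-3 were on the leukemia side, with Csf3r at 47.6 against 11.5 FPKM and Il3ra at 38.6 against 8.98 FPKM. Flt3 was on the other side at 12.7 against 32.5 FPKM, as was Epor, the erythropoietin receptor, at 0.36 against 10.1 FPKM. Of 15 measured receptors, 2 were higher in leukemia cells, 6 were higher in the macrophage-labelled library and the median was -0.25, a sign that reversed to 0.03 when only genes that reached an FPKM of 5 were kept. Csf2ra, the alpha chain of the GM-CSF receptor, was high in both at 263 and 137 FPKM.

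Metabolic and growth programs had medians above 0, but below those of azurophil granule genes and MLL-AF9 target genes. Of 20 glycolysis genes, 11 were at least 2-fold higher in leukemia cells and 1 in the macrophage-labelled library, with a median of 1.05. Hk3, the hexokinase of myeloid cells, had 299.7 against 19.4 FPKM, Pkm, pyruvate kinase, had 291 against 104 FPKM, and Aldoa, aldolase A, had 269.9 against 97.1 FPKM. The glucose transporters did not share the difference, with Slc2a1 at 0.19 and Slc2a3, the exception on the macrophage side, at -1.42. Gapdh, whose many processed copies make its level uncertain, was at 11.3 against 4.54 FPKM. DNA replication genes were higher in leukemia cells for 9 of 20, with a median of 0.93. Mcm5, a subunit of the replicative helicase, had 126 against 53.6 FPKM. None of 20 mitotic genes and none of 20 ribosome biogenesis genes reached a fold of 2, with medians of 0.40 and 0.43. Mki67, the proliferation antigen, had 68.5 FPKM in leukemia cells and 57.1 FPKM in the macrophage-labelled library of MA9 mice, and 11.7 FPKM in that of WT mice. The respiratory chain gave a median of 0.31 over 20 genes, with Cycs, cytochrome c, as its only member past a fold of 2.

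Genes shared by macrophages in general did not separate the libraries in 1 direction. Of 17 measured pan-macrophage genes, 6 were higher in leukemia cells and 2, Fcgr1 and Mertk, in the macrophage-labelled library, and the median was 0.45. Fcgr3, a low-affinity IgG receptor, had an FPKM of 82.3 against 15, Cd14, the co-receptor for lipopolysaccharide, 17.8 against 4.0, and Itgam, which encodes CD11b, 16.8 against 5.23. Tyrobp, a signalling adaptor, was at 667 against 293 FPKM. The summed FPKM of the list was 2784 in leukemia cells and 1479 in the macrophage-labelled library. Lysosome genes were likewise mixed, with 5 of 19 higher in leukemia cells, among them Lamp1 at 1.70 and Hexa at 1.72, and 2, Ctss and Tfeb, higher in the other library, and with a median of 0.52. Ctss, the cathepsin that trims the invariant chain, had 111 against 310.3 FPKM.

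Genes of red pulp macrophages separated more clearly. Of 17 measured, 11 were higher in the macrophage-labelled library and 2 in leukemia cells, with a median of -1.93. Spic, the transcription factor on which red pulp macrophages depend, had an FPKM of 0.33 in leukemia cells and 14.7 in the macrophage-labelled library. Cd5l, a secreted scavenger protein, had 1.24 and 32.5 FPKM, and Axl, a receptor for dying cells, had 1.94 and 20.9 FPKM. Leukemia cells held the exceptions, Hpgd, a prostaglandin dehydrogenase, at 288 against 18.8 FPKM, and Tfec, a relative of MITF, at 15 against 0.61 FPKM. With Hpgd counted, the summed FPKM of the list was nearly equal, 405 and 403 (the bar plot of summed FPKM). Among 15 macrophage transcription factors 6 were higher in the macrophage-labelled library and 1, Tfec, in leukemia cells, with a median of -0.56. Nr1h3, the oxysterol receptor LXR alpha, had 0.591 against 11.2 FPKM, and Id3, an inhibitor of helix-loop-helix factors, 0.154 against 15.4 FPKM.

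**Figure D4:**
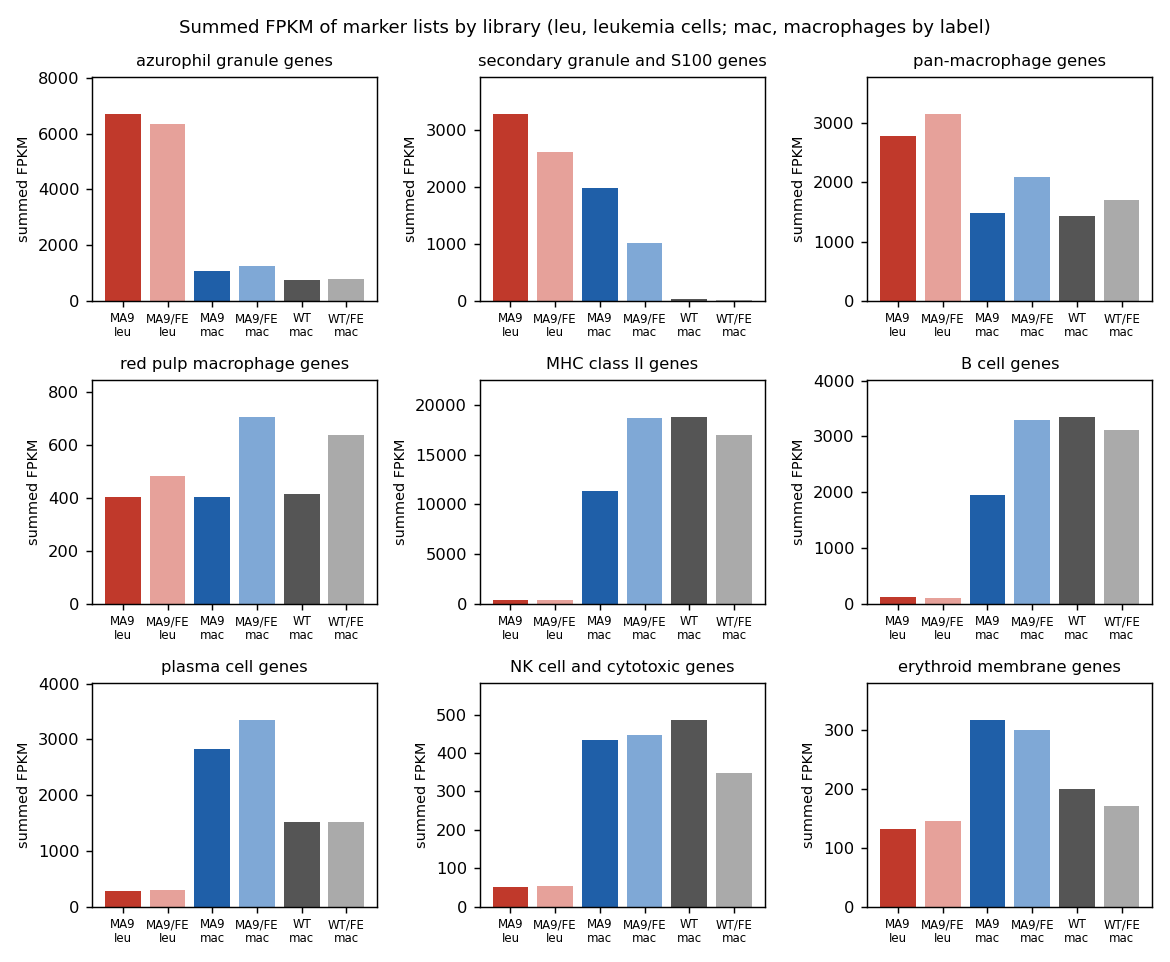
Bars give the summed FPKM over all members of 9 marker lists in the 6 libraries, 1 library per bar and no error bars. The vertical axes start at 0 and differ in scale. Azurophil granule genes are highest in both leukemia libraries, secondary granule genes are near 0 only in the WT and WT/FE libraries, and MHC class II, B cell, plasma cell and NK genes are high in all 4 libraries labelled macrophages.

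Iron handling genes held a few clear differences, while most members did not separate the libraries. Of 21 measured genes, 6 were higher in the macrophage-labelled library and 1 in leukemia cells, beside 13.6% and 9.08% of all genes, 14 were under the fold and the median was -0.31. Hmox1, which opens the heme ring, had an FPKM of 13 in leukemia cells and 104 in the macrophage-labelled library. Slc40a1, ferroportin, the iron exporter, had 3.95 and 17.6 FPKM, and Slc11a1, a metal transporter of the phagosome, had 2.81 and 21.9 FPKM. Blvrb, which reduces a product of heme breakdown, and Hfe, which regulates iron sensing, were at -2.49 and -2.57. The ferritin chains and the transferrin receptor Tfrc were under a fold of 2, with Fth1 at 433 against 798 FPKM, Ftl1 at 478 against 398 FPKM and Tfrc at 21.5 against 26.3 FPKM. On the leukemia side stood Ncoa4, the receptor that delivers ferritin to lysosomes, at 21.1 against 7.57 FPKM. Heme synthesis had 9 measured enzymes, 1 higher in leukemia cells and 2 in the macrophage-labelled library, with a median of -0.19. Alas1, the first and rate-limiting enzyme outside the erythroid line, had 70.7 against 7.22 FPKM, while Cpox and Alad were higher in the macrophage-labelled library by less, at -1.58 and -1.15.

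Complement and the receptors of phagocytes stood on both sides. Complement genes had 10 measured members, 5 of them higher in the macrophage-labelled library and 3 in leukemia cells, with a median of -1.55. The list had 5 members above 0 and 5 below, and its median was -0.04 with no minimum FPKM and -3.33 at a minimum of 5. Cr2, a complement receptor of B cells, was among the members on the macrophage side. The chains of C1q, the recognition unit of the classical pathway, moved together, with C1qa at 4.5 against 62.8 FPKM, C1qb at 5.97 against 64.7 and C1qc at 2.65 against 35.2. C3, the central component, was on the leukemia side at 91.5 against 13.8 FPKM. Of 15 engulfment receptors, 7 were higher in the macrophage-labelled library and 1, Itgb5, in leukemia cells, with a median of -0.66, or -0.03 with no minimum FPKM. Cd36, a scavenger receptor, had 0.092 against 28.1 FPKM and Mrc1, the mannose receptor, 0.718 against 7.34. Fc receptor genes were higher in the macrophage-labelled library for 9 of 12 and in leukemia cells for 1, Fcgr3, with a median of -2.28. The most abundant of these were Fcmr, the IgM receptor, at 123 FPKM, Fcrla at 76.9 FPKM and Fcer2a, which encodes CD23, at 43.8 FPKM, which B cells are known to express. Fcgr2b and Fcer1g, expressed by phagocytes, were under the fold. Fcgr4, a receptor of macrophages and monocytes, had 8.51 against 32.8 FPKM. Fcamr had 0 reads in leukemia cells, which makes it at least 63.7-fold higher in the macrophage-labelled library against a floor of 3 reads.

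Antigen presentation separated the libraries at high levels. Of 14 MHC class II and costimulatory genes, 13 were higher in the macrophage-labelled library and 0 in leukemia cells. H2-Eb1 had an FPKM of 32.8 in leukemia cells and 2456 in the macrophage-labelled library, H2-Ab1 had 42.3 and 1909, and H2-Aa had 26.6 and 1383. Ciita, the master regulator of this gene set, had 1.01 and 59.6 FPKM. Leukemia cells still held the chaperones H2-DMa and H2-DMb1 at 59.1 and 37.9 FPKM, against 143 and 113 FPKM. Of the costimulators, Cd86 and Cd40 were lower in leukemia cells by 3.84 and 3.56, and Cd80 differed by -0.06. Reads of H2 genes can be shared among copies, so single members are less certain than the group. B cells, dendritic cells and macrophages all express this set, and their shares of it were not tested. The 150 bases before H2-Aa and H2-Eb1 are printed because these genes carried the largest differences, with capitals for CCAAT on either strand, the core of the Y box known from MHC class II promoters. The stretch of H2-Aa lies at chr17:34287824-34287973 on the minus strand and H2-Eb1 at chr17:34305717-34305866 on the plus strand.
H2-Aa: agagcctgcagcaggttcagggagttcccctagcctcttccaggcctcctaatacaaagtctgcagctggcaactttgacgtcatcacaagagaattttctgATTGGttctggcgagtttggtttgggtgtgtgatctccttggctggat
H2-Eb1: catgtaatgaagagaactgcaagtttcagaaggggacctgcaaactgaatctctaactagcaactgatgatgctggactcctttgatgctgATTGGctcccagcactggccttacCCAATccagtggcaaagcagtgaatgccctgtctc
Counted over the 250 bases before the start, CCAAT was present in 7 of 9 members of the list with a promoter. It was in 36.1% of all promoters so searched and in 5 of 13 azurophil granule genes.

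B cell genes gave the lowest median of all lists, -5.23. Of 17 measured, 16 were higher in the macrophage-labelled library and 0 in leukemia cells. Beside Cd79a, the kinase Blk had an FPKM of 0.408 in leukemia cells and 82 in the macrophage-labelled library. Ms4a1, which encodes CD20, had 0.116 and 76 FPKM, and Pax5, the factor of B cell identity, had 0.255 and 43.4 FPKM. Cd37, a tetraspanin, was under the fold at -0.75. The list summed to 117 FPKM in leukemia cells and 1945 in the macrophage-labelled library, with 3343 in WT macrophages. Plasma cell genes were higher in the macrophage-labelled library for 14 of 16, with a median of -3.28. Jchain, which joins antibody units, had the largest difference of any gene so covered, -8.57, at 2.63 against 1357 FPKM. Mzb1, a chaperone of antibody assembly, had 0.913 against 506 FPKM, and Prdm1, the factor that drives plasma cell formation, had 0.138 against 8.91 FPKM. The exceptions Edem1 and Sec11c, of general protein secretion, were under the fold.

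Genes of other lymphocytes and of dendritic cells were also on the macrophage side, and no member of these lists was higher in leukemia cells by the fold. T cell genes were higher in the macrophage-labelled library for 11 of 12, with a median of -2.54, though the levels of the defining T cell receptor complex were low. Cd3e had 0.879 and Cd3g 1.12 FPKM there, against 19.8 for Cd4 and 19.5 for Cd8a, which dendritic cells also express. NK cell genes were higher in that library for 13 of 14, with a median of -3.42. Gzma, a granzyme, had 0.383 against 58.2 FPKM, and Ccl5, a chemokine of cytotoxic cells, 1.2 against 209.9 FPKM. Ncr1, the NK receptor NKp46, had 0 reads in leukemia cells and 313 reads in the macrophage-labelled library, at least 111-fold more. Dendritic cell genes were higher in the macrophage-labelled library for 10 of 14, with a median of -3.03. Ccr7, which guides dendritic and T cells to lymphoid organs, had 1.81 against 142 FPKM, Zbtb46, a factor of classical dendritic cells, 0.207 against 12.4 FPKM, and Clec9a 1.57 against 26.1 FPKM. Itgax, which encodes CD11c, was at 5.46 against 109 FPKM.

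Genes of the erythroid line were on the macrophage side although hemoglobin was not. Erythroid membrane genes were higher in the macrophage-labelled library for 11 of 15, with a median of -1.62. Slc4a1, the anion exchanger band 3, had an FPKM of 2.74 against 13.5, and Aqp1, a water channel, 1.17 against 42. Erythroid transcription factors were higher there for 7 of 12, with a median of -2.64. Klf1, the factor of globin switching, had 0.756 against 24.9 FPKM and Gata1, the master erythroid factor, 0.384 against 11.5 FPKM. Myb, Nfe2 and Lmo2, which myeloid progenitors also use, were the 3 members higher in leukemia cells. Car1, a carbonic anhydrase of erythroid progenitors, was at 0.485 against 174 FPKM. Among 4 measured hemoglobin genes, 2 were higher in leukemia cells, Hbb-bs at 189.9 against 83.4 FPKM and Hba-a2 at 28.6 against 5.38 FPKM. Hba-a1 and Hba-a2 are near-identical copies whose reads can be split either way. Their whole list summed to 420.0 and 225 FPKM. GATAAG, a motif bound by GATA factors, was present before the start of 5 of 10 erythroid membrane genes with a promoter, and in 6.08% of all promoters. Megakaryocyte genes were at low levels, and 4 of 9 were higher in the macrophage-labelled library and 0 in leukemia cells, with a median of -0.97, among them Itga2b at 1.37 against 6.87 FPKM.

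Smaller lineages were mixed. Of 15 basophil, mast cell and eosinophil genes, 4 were higher in leukemia cells and 6 in the macrophage-labelled library, with a median of -0.36. Hdc, histidine decarboxylase, had 21.9 against 2.84 FPKM and Cpa3, a mast cell peptidase, 21.9 against 9.15, whereas Prss34, a basophil protease, had 2.58 against 93.2 FPKM. Stromal and endothelial genes had only 4 of 16 members measured, and the collagen genes were all under an FPKM of 1. The measured members were split, 2 and 2, with a median of -0.11 that reversed to 1.03 when only genes that reached an FPKM of 5 were kept.

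Sensing and signalling genes were lower in leukemia cells more often than higher. Of 16 genes of Toll-like receptor sensing, 8 were higher in the macrophage-labelled library and 1, Cd14, in leukemia cells, with a median of -1.08. Tlr7, a sensor of single-stranded RNA, had 1.34 against 18.6 FPKM, while Tlr2 and Tlr4 were at 0.41 and -0.86. Interferon response genes were higher there for 8 of 21 and in leukemia cells for 0, with a median of -0.85. Isg15 had 9.76 against 34.4 FPKM and Irf7, which amplifies the response, 9.77 against 29.4. Immediate early genes, which also respond to cell isolation, were higher there for 14 of 18, with a median of -1.50. Egr1 had 10.2 against 99.3 FPKM and Junb 76.3 against 335 FPKM, and Fosl2 was the only member on the leukemia side, at 2.52. The part of cell handling in this difference was not tested.

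Ligands, adhesion molecules and checkpoint genes closed the comparison. Of 18 measured ligands, 4 were higher in leukemia cells and 9 in the macrophage-labelled library, with a median of -0.99. Ccl3 and Ccl9, chemokines of myeloid cells, were on the leukemia side at 173 against 62 and 50.2 against 8.5 FPKM. Il1b, the inflammatory interleukin, and Il18 were on the other side at 2.66 against 46.7 and 0.908 against 12.4 FPKM. Adhesion and homing genes were split, 5 and 4 of 19, with a median of 0.37. Cxcr4, which holds cells in BM, had 137 against 77.2 FPKM, under the fold, and S1pr1, which lets lymphocytes leave tissue, had 0.0723 against 39 FPKM. Of 20 checkpoint genes, 10 were higher in the macrophage-labelled library and 1, Nectin2, in leukemia cells, with a median of -1.05. Cd47, the signal that blocks engulfment, had 108 FPKM in leukemia cells and 54.1 in the macrophage-labelled library, and its receptor Sirpa had 58.8 and 85.4 FPKM, both under the fold. Cd274, which encodes PD-L1, had 2.93 against 49.4 FPKM. Lag3 was at 0.235 against 16.8 FPKM, and Tigit, with 0 reads in leukemia cells, was at least 70.1-fold higher.

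Outside the lists, the well-covered genes with the largest differences were of varied function. On the leukemia side were Tcf24, a basic helix-loop-helix factor, at 44 against 0.112 FPKM, and Dmrtb1, a factor known from germ cells, at 113 against 2.63 FPKM. Hnf4a, a nuclear receptor known from liver and gut, had 21.4 against 0.183 FPKM, and Epha7, an ephrin receptor, 22 against 0.119 FPKM. Gstm1, a glutathione transferase, Rab44 and Cldn15, a claudin, stood at 239, 292 and 44.5 FPKM in leukemia cells and at 10.1, 12 and 1.27 FPKM in the macrophage-labelled library. All 7 genes kept a log2 difference of at least 4 in the libraries with iron. On the macrophage side were Ltb, lymphotoxin beta, at 1.24 against 166 FPKM, Gimap4, a GTPase of lymphocytes, at 0.15 against 81.4, and Fscn1, an actin bundler of mature dendritic cells, at 0.0914 against 70.2. Apol7c had 0 reads in leukemia cells and 3198 in the macrophage-labelled library, at least 1138-fold more.

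The pair with iron, MA9/FE leukemia cells against MA9/FE macrophages, shares no library with the pair described so far and gave the same comparison in other libraries, though iron differs and it is no replicate. In that pair 1302 of 11356 genes (11.5%) were higher in leukemia cells and 1626 (14.3%) in the macrophage-labelled library. Of the 1033 genes higher in leukemia cells without iron, 857 (83.0%) passed the fold in the same direction with iron, and of the 1552 higher in the macrophage-labelled library 1290 (83.1%) did. As shares of the genes counted with iron, these were 65.8% and 79.3%. The sign was the same for 1022 and 1542 of them, and 2 genes of each set passed the fold in the opposite direction. Across genes the differences of both pairs had a Pearson r of 0.94, as a description only, since genes are not independent replicates. The median distance between both differences of a gene was 0.24 on the log2 scale, and the 95th percentile was 0.78.

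**Figure D5:**
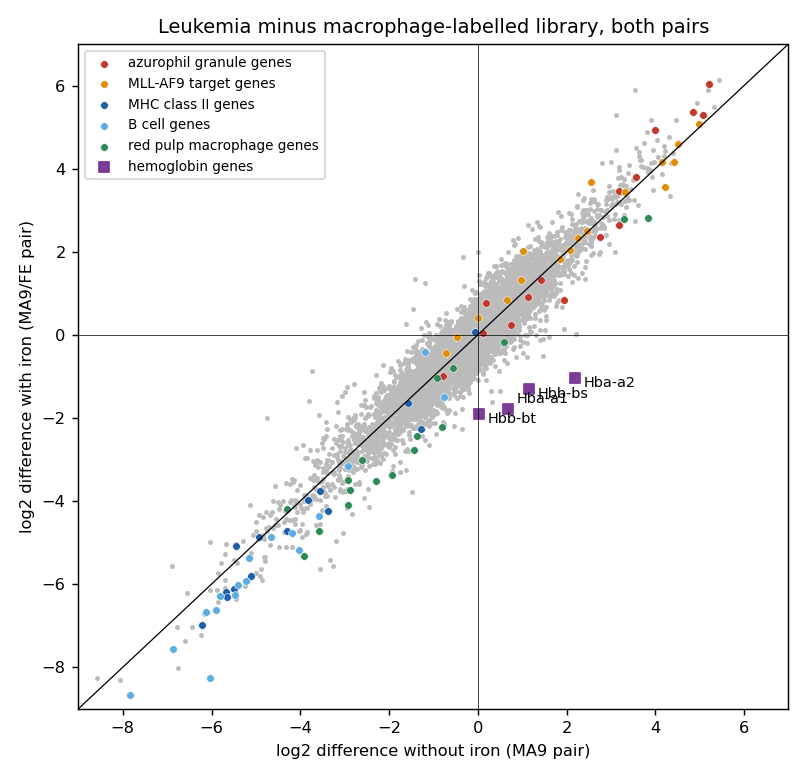
Each point is a protein-coding gene, with its log2 difference between leukemia cells and the macrophage-labelled library without iron on the horizontal axis and with iron on the vertical axis (FPKM + 1, TMM scaled). The line marks equal differences, colors mark 5 lists and squares the 4 hemoglobin genes. Most genes lie along the line, and the hemoglobin genes lie below it.

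Some list medians moved between the pairs. Mitotic genes had 16 of 20 members higher in leukemia cells with iron and a median of 1.22, against 0 and 0.40 without iron. Their summed FPKM was 682 in leukemia cells without iron and 759.9 with iron, and 503 and 305 in the respective macrophage-labelled libraries. Red pulp macrophage genes went from a median of -1.93 to -3.02 and interferon response genes from -0.85 to -1.50. Erythroid transcription factors went from -2.64 to -1.83 and B cell genes from -5.23 to -5.93. Hemoglobin genes reversed, from 0.91 to -1.54, with 0 members higher in leukemia cells and 4 higher in the macrophage-labelled library with iron. Azurophil granule genes kept medians of 2.75 and 2.36, MLL-AF9 target genes of 2.26 and 2.34, and MHC class II genes of -4.61 and -4.80. No test of these changes was possible with 1 library per condition.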

How the data were processed

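The labels place 6 RNA-seq libraries of mouse cells in 6 conditions, 1 library each, and 2 of these libraries are compared here. The authors deposited FPKM per Ensembl gene, and the submitters' processing notes name Bowtie2 2.2.5, RSEM and mm10. The estimates of RSEM can divide reads among similar genes, so they need not be whole reads. Types, symbols and exon lengths were from GENCODE M21, which covered 54495 of 54532 identifiers. FPKM times exon length gave whole reads, within 0.05 reads, for 96.8% to 97.0% of values above 0. Whether RSEM gave these values is thus not settled here. Recovered depths were 16085346 to 19518359 reads. Differences between mice cannot be had from these libraries, and the floor of 3 reads covers counting error only. Counting error was wide for genes with few reads, such as Gm17651, counted as different with 0 reads against 1. A TMM factor (log2 of 0.03, trims of 30% and 5%, coded by hand) and a pseudocount of 1 were applied. Genes were counted at a fold of at least 2, without a test. Text may name any list member and, outside the lists, the 15 largest differences in each direction among genes with 100 reads or more where they are higher, leaving out predicted genes and immunoglobulin and T cell receptor segments. The comparison, its members and the 41 lists were chosen with earlier results of these data known. Alternatives were other scalings, a pseudocount of 0.1, no minimum FPKM or 5, a fold of 4, removal of the exon length trend and, added after the data were seen, the pair with iron. RefSeq promoters (GRCm38.p6) were matched by symbol for 16509 protein-coding genes, and 5 motifs were counted in 5 lists. Some list members are counted but not reported by name here. Steps were tested on simulated data with as many genes raised as lowered and no differences between mice, which is unlike the pair compared here. Software was Python 3.11.15, numpy 2.4.6, pandas 2.3.3, statsmodels 0.14.6, scipy 1.17.1 and matplotlib 3.10.9.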

Additional observations from a re-analysis of the deposited data

Results flagged for a closer look

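Of the genes past a 2-fold difference without iron, 4 passed it in the opposite direction with iron. Orm1, an acute phase protein, was at -1.18 without iron and 1.25 with iron on the log2 scale of leukemia cells minus the macrophage-labelled library. Hbb-bs was at 1.15 and -1.30, and Hba-a2 at 2.19 and -1.03, both hemoglobin chains. Gm17651, a predicted gene with 0 reads in leukemia cells and 1 read in the macrophage-labelled library, was at -1.41 and 1.34. These opposite directions were not tested, because each condition has 1 library.

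Immunoglobulin genes, which lie outside the protein-coding set, held about 5.35% of the reads of the macrophage-labelled library and 0.0421% of those of leukemia cells. The share was 6.80% in MA9/FE macrophages, 2.64% in WT macrophages and 2.98% in WT/FE macrophages. Igkc, the kappa light chain constant region, had an FPKM of 18564 against 43.2, and Ighm, the mu heavy chain, 7002 against 154. Ighg2c stood at 4389 FPKM in the macrophage-labelled library of MA9 mice, 157.6 in that of WT mice and 2.12 in leukemia cells.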

How the results depend on the processing

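No paired analysis was possible because each condition has 1 library. The count of genes higher in leukemia cells stayed within 1.5 times of 1033, and that of genes higher in the macrophage-labelled library within 1.5 times of 1552, except where the rule was made stricter. At a minimum FPKM of 5, which leaves fewer genes to count, 984 were higher in the macrophage-labelled library. At a fold of 4 the counts were 290 and 611. Of all genes counted as different, 83.1% were repeated in the pair with iron, 86.9% with a pseudocount of 0.1 and 85.1% at a fold of 4. Genes higher in leukemia cells made up 40.0% of those counted, 38.8% to 45.1% under 7 settings of scaling, pseudocount, minimum FPKM and exon length, and 32.2% at a fold of 4. Over these 7 settings, 39 of 41 list medians kept their sign, but 26 moved by more than the counting error of their members in at least 1 of them, 41 of 287 values in all. The complement median went from -1.55 to -0.04 with no minimum FPKM, that of T cell genes from -2.54 to -4.31 with a pseudocount of 0.1 and that of checkpoint genes from -1.05 to -2.52 at a minimum FPKM of 5. At a minimum FPKM of 5, which leaves fewer members, the median of growth factor receptors reversed from -0.25 to 0.033 and that of stromal and endothelial genes from -0.11 to 1.03. With 1 library per condition, differences between mice, organ and sort cannot be told apart from cell type.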

Other observations

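Some values belonged to no list. Xist was above 50 FPKM in all 6 libraries and the Y-linked genes Ddx3y, Eif2s3y, Kdm5d and Uty were listed at 0 in all 6.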
